A study of Mus musculus with 2 samples.

Results

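Tissue macrophages of fat come as long-lived resident cells and as cells that arrive from the blood as monocytes, and the genes that mark each kind were followed here in obese and lean adipose tissue. The set holds 10 genes chosen by name. Cd163, Mrc1, Lyve1, Timd4 and Folr2 mark resident macrophages, while Adgre1, Cd68 and Mpeg1 are general macrophage genes and Ccr2 and Cx3cr1 are chemokine receptors of recruited monocytes and the cells they give rise to. A probe set was used where the platform annotation gives 1 of these symbols alone, which held for 15 of 45101 probe sets and gave 10 of the 18193 genes with a probe set of their own.

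The mice were C57BL/6, a standard inbred strain, and each diet was represented by adipose RNA of 3 animals combined into a pool. The HFD pool came from mice given the high fat diet HFD32 to make them obese, and the ND pool from control mice given the normal diet CE-2, each hybridised to its own array. Feeding ran from 6 to 18 weeks of age, when the tissue was taken. The sources used here do not state the fat depot or the sex. With 1 array per diet there are no replicates, so the diets cannot be tested against each other and the spread between animals is unknown. In whole tissue, more or fewer cells of a type cannot be told apart from more or less of the RNA in each cell.

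As background, resident macrophages of fat lie along vessels and among adipocytes, clear dying cells and debris, and carry scavenger and lectin receptors. In obesity, adipocytes and stromal cells release the chemokine CCL2, which draws monocytes that carry its receptor CCR2, and these become macrophages that gather around dying adipocytes. The surface protein encoded by Adgre1 and lysosomal CD68 are found on macrophages of both origins in the mouse.

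The stretches of DNA just before the annotated starts of 4 of the genes are shown so that a reader can see the control regions of 2 resident and 2 general markers. Each runs 5′ to 3′ from 250 to 16 bases before the start, 235 bases, from RefSeq on build GRCm38.p6, with Cd163 at chr6:124304401-124304635 (+ strand), Mrc1 at chr2:14229164-14229398 (+ strand), Cd68 at chr11:69666186-69666420 (- strand) and Mpeg1 at chr19:12460520-12460754 (+ strand). Capitals mark GAGGAA or its reverse TTCCTC, the core bound by PU.1, the master transcription factor of myeloid cells.
Cd163: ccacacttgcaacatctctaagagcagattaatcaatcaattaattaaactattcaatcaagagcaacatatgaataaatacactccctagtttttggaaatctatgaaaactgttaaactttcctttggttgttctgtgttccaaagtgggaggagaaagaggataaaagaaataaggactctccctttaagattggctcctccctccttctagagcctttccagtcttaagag
Mrc1: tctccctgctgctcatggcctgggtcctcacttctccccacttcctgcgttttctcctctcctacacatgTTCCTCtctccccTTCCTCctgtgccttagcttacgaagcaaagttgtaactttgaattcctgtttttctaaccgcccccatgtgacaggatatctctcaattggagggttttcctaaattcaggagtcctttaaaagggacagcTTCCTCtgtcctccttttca
Cd68: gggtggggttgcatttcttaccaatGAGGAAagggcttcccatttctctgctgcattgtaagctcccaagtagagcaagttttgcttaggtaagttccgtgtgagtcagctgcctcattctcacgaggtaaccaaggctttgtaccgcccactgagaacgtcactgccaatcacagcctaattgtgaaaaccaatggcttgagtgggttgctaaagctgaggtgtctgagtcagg
Mpeg1: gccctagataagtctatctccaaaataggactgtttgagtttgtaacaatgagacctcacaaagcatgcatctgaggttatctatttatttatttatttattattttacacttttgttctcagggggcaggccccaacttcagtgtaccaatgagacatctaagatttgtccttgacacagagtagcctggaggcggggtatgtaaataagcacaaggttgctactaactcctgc
GAGGAA, searched on both strands, occurred 3 times before Mrc1 and 1 time before Cd68, and not in the windows of Cd163 and Mpeg1. A second motif, TGCTGA or its reverse TCAGCA, the half-site of MAF factors, was in none of the 4. The promoter table held 9 windows for 8 of the 10 genes. Of these, 2 held GAGGAA, beside 21.8% of all 32851 windows of this length, and 2 held TGCTGA (a Timd4 window and a Folr2 window), beside 15.2% of all.

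The general macrophage genes were higher on the HFD array and the resident markers differed little. Levels below are log2 signals, so that a difference of 1 is a 2-fold ratio, and every difference is HFD minus ND. A gene was taken at its brightest probe set and compared if the mean of both arrays was no lower than 5.44, the level that splits the probe sets without controls into equal numbers (the floor). Of the 11778 genes compared, 3.28% stood 2-fold or more higher on the HFD array and 3.29% stood 2-fold or more lower, with a median difference of 0. Of the 10 markers 9 passed the floor, each on both arrays, and Timd4 did not.

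Of the 4 resident markers compared, 0 were past 2-fold upward or downward (3.28% and 3.29% of all genes), and their median difference was 0.25. At such shares a count of 0 among 4 genes does not set them apart from other genes. Among the 5 general or recruited markers, 3 were at least 2-fold higher (3.28% of all genes were) and 0 lower (3.29% of all). Their median difference was 1.65 (a ratio of 3.13). The resident median minus the general or recruited median was -1.40 on the log2 scale, a ratio 2.63 times smaller. That gap came from Adgre1, Cd68 and Mpeg1, whose median was 1.81. Ccr2 and Cx3cr1 had a median of 0.49, and the resident median minus this one was -0.24, within the probe error given next. The error at hand is that between probe sets of 1 gene. It had an SD of 0.27 over 5131 genes, and in 3105 genes with 2 probe sets the gap between their differences reached 0.70 at its 95th percentile. It says nothing of the spread among animals, dissections or hybridisations.

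**Figure D1:**
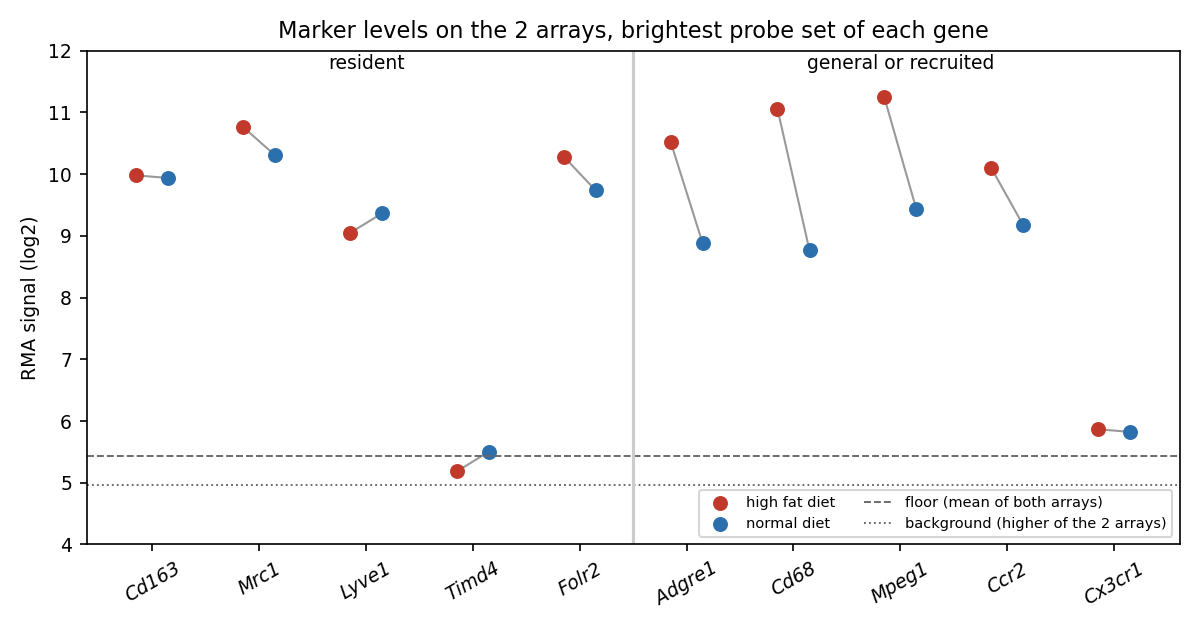
Log2 RMA signal (vertical axis) of the 10 markers on the HFD array (red) and the ND array (blue), 1 array of 3 pooled animals each, at the brightest probe set of each gene. Dashed and dotted lines are the floor and the background. The red points of Adgre1, Cd68 and Mpeg1 stand clearly above the blue ones, while the points of Cd163 and of Cx3cr1 lie almost level.

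Cd163, the scavenger receptor that takes up haemoglobin bound to haptoglobin, had a level of 9.98 on the HFD array and 9.94 on the ND array. The difference of 0.04 is smaller than the SD between probe sets, and 54.9% of all genes compared lay below it. It was thus near the middle of the genes measured.

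Mrc1, the mannose receptor CD206, had 10.76 on the HFD array and 10.30 on the ND array, a ratio of 1.37. Folr2, the beta folate receptor, had 10.28 and 9.74 on the same arrays, a ratio of 1.46. These were the highest differences of the resident markers, above 88.4% (Mrc1) and 91.1% (Folr2) of all genes compared, yet both below 2-fold.

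Lyve1, a receptor for the matrix polysaccharide hyaluronan, was slightly lower on the HFD array. Its brighter probe set had 9.05 there and 9.37 on the ND array, a difference of -0.32, and its other probe set had 8.44 and 8.62, a difference of -0.18. Both probe sets pointed the same way, and the size was close to the probe error. LYVE1 is also made by lymphatic endothelium, so the genes of that cell type are given beside it. Of 6 lymphatic genes with a probe set, 4 were above the floor, and all 4 were lower on the HFD array (49.3% of all genes were), 2 of them at least 2-fold (3.29% of all). The lowest was Reln (6.34 on the HFD and 7.65 on the ND array). Flt4, the receptor of the lymphatic growth factor VEGF-C, had 6.61 and 6.97, while podoplanin, Pdpn, had 9.64 and 9.68. The summed linear signal of the 6 was 1113 on the HFD array and 1400 on the ND array. Most of both sums came from Pdpn, which was nearly level, so they understate the differences of the dimmer Reln and Flt4. Prox1, the factor that sets lymphatic identity, was below background on both arrays (3.21 and 2.88). The part of lymphatic endothelium in the Lyve1 signal was not tested.

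Timd4, the phosphatidylserine receptor TIM-4 by which macrophages bind dying cells, was the 1 marker below the floor. It had 5.18 on the HFD array and 5.50 on the ND array, a mean of 5.34. Background, the 95th percentile of 81 probe sets of olfactory, vomeronasal and taste receptor genes, was 4.96 on the HFD and 4.94 on the ND array. Timd4 stood just above it on both. Just inside the floor was Cx3cr1, at a mean of 5.84.

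Cd68, a glycoprotein of macrophage lysosomes, differed most, with 11.06 on the HFD array and 8.76 on the ND array, a ratio of 4.91. Only 55 of the genes compared had a larger difference. Mpeg1, which encodes perforin-2, a pore-forming protein against engulfed bacteria, had 11.25 on the HFD array and 9.43 on the ND array, a ratio of 3.52. Adgre1 had 10.53 on the HFD array and 8.88 on the ND array, a ratio of 3.13. All 3 lay above 98.9% or more of the genes compared. Their neighbours in order differed by 0.48 (Cd68 and Mpeg1) and 0.17 (Mpeg1 and Adgre1), within the gap of 0.70 that probe sets of 1 gene can show, so their order is not firm.

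The 2 chemokine receptors did not share the size of these differences. Ccr2, the receptor that draws monocytes out of bone marrow and into inflamed tissue, had 10.10 on the HFD array and 9.17 on the ND array at its brightest probe set, a ratio of 1.90. Its other probe sets had 9.04 and 7.82, 7.11 and 6.77, and 6.73 and 6.01 in the same order of diets. All 4 were higher on the HFD array, by 0.34 to 1.22, and 1 of the 4 passed 2-fold. The step in the ranking from Adgre1 down to Ccr2, 0.72, was the only one between neighbours of the 10 markers that exceeded 0.70. With Ccr2 at its second brightest probe set that step was 0.43, so the separation did not hold there.

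Cx3cr1, the fractalkine receptor of patrolling monocytes and some tissue macrophages, had 5.87 on the HFD array and 5.82 on the ND array at its brighter probe set. The other probe set had 4.31 and 3.63 and lay below background on both arrays, so no ratio is given for it. At these dim levels the arrays showed no difference for Cx3cr1 beyond the probe error, and its difference of 0.04 fell beside that of Cd163 rather than beside Ccr2.

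**Figure D2:**
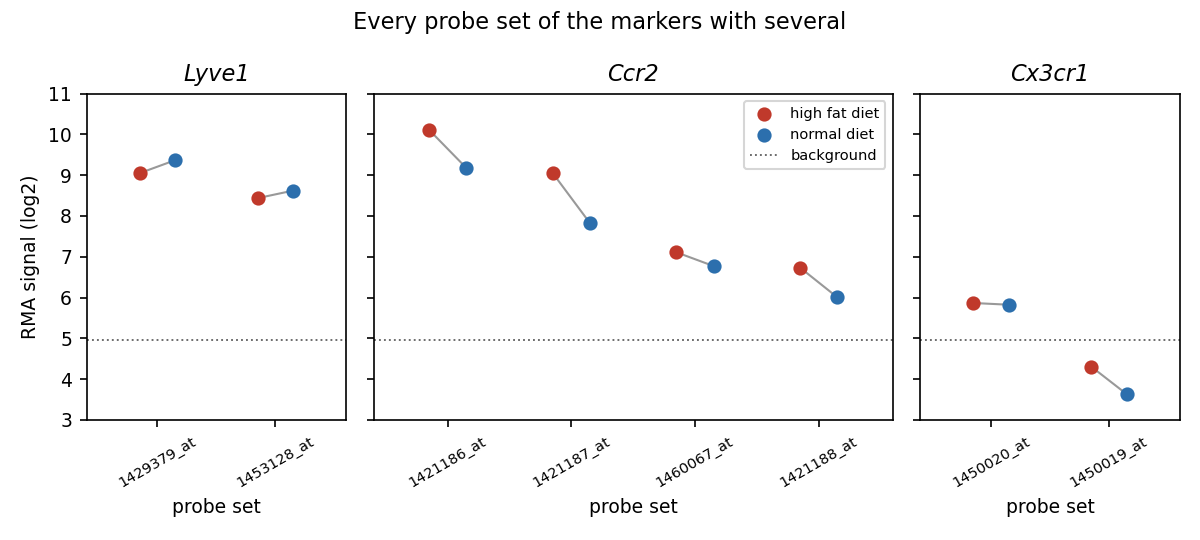
Log2 RMA signal (vertical axis) at each probe set (horizontal axis) of Lyve1, Ccr2 and Cx3cr1, the 3 markers with several, on the HFD array (red) and the ND array (blue). The dotted line is background. All 4 Ccr2 probe sets are higher in red, both Lyve1 probe sets are slightly higher in blue, and 1 Cx3cr1 probe set lies below background.

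Taking each resident marker with each general or recruited one gave 20 pairs above the floor. The resident gene had the smaller difference in 17 of them, by more than 0.70 in 14. The 3 exceptions were Cd163, Mrc1 and Folr2 against Cx3cr1, and none of the 3 exceeded 0.70. With Timd4 included, 22 of 25 pairs had the smaller difference in the resident gene. The pairs share genes and arrays and are a description of these 2 pools.

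**Figure D3:**
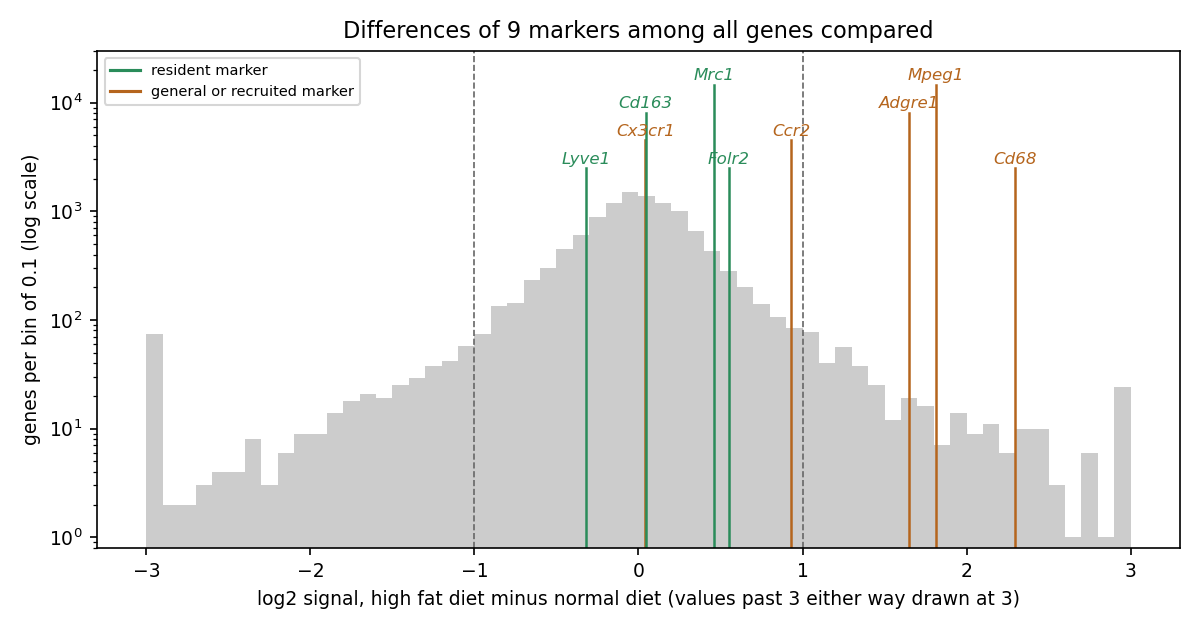
Number of genes (vertical axis, log scale) by difference in log2 signal, HFD minus ND, for the 11778 genes compared, with lines at the 9 markers above the floor. Dashed lines mark 2-fold. Cd68, Mpeg1 and Adgre1 lie in the upper tail. The resident markers Lyve1, Cd163, Mrc1 and Folr2 lie within 2-fold of equal signal, and so do Ccr2 and Cx3cr1.

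Other genes of macrophages were set beside the markers. Of 20 core macrophage genes, all above the floor, 19 were higher on the HFD array (49.9% of all genes were), with a median of 1.05. At least 2-fold higher were 12 (3.28% of all) and at least 2-fold lower were 0 (3.29% of all). Ms4a7 (9.47 on the HFD and 7.63 on the ND array) and the adaptor Tyrobp (11.83 and 10.11) were highest. Itgam, the integrin CD11b, had 7.69 and 6.25, and Csf1r, the receptor for the macrophage growth factor, had 12.42 and 11.81, a ratio of 1.53. Mertk, a receptor for dying cells found on resident macrophages, was the exception, with 8.20 and 8.60. None of the 20 was at background on both arrays, and all were above the floor, so RNA of these genes was detected in both pools. Several of them, such as Ptprc, Cd53 and Laptm5, are also made by other leukocytes. The list and its median are therefore not specific to macrophages.

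Set against the core median, each of the 4 resident markers had a smaller difference. Subtracting that median removes a constant offset between the arrays, but not a distortion that depends on signal level. The values were -1.01 for Cd163, -0.59 for Mrc1, -0.50 for Folr2 and -1.37 for Lyve1, that is, ratios 2.01, 1.51, 1.42 and 2.58 times smaller than the core. The core genes themselves spread from -0.40 to 1.83, and Cd163, Mrc1, Folr2 and Lyve1 lay above 1, 2, 3 and 1 of the 20. The values of Mrc1 and Folr2 were within the gap of 0.70 between probe sets, and those of Cd163 and Lyve1 were beyond it. Ccr2 lay close to the core (-0.12) and Cx3cr1 below it (-1.01). Adgre1, Mpeg1 and Cd68 lay above it, by 0.60, 0.76 and 1.24.

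A further list of 20 resident-type genes held none of the markers. Its 19 genes with a probe set were all above the floor. On the HFD array 7 were higher and 12 lower (49.9% and 49.3% of all genes), with a median of -0.16. Past 2-fold were 1 upward and 0 downward (3.28% and 3.29% of all). The exception was the chemokine Ccl8, with 10.48 on the HFD array and 8.82 on the ND array, a ratio of 3.15. The lectin Clec10a had 10.86 and 10.18, and Slc40a1, the iron exporter ferroportin, had 7.84 and 8.65, the lowest of the list. Several of these genes are also made by other cells of fat, so the list is not specific to macrophages.

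Genes of monocytes went both ways. Of 18, 15 had a probe set and 13 were above the floor, with 7 higher and 6 lower (49.9% and 49.3% of all genes), shares near those of all genes. Their median was 0.06 and ran from -0.16 to 0.20 over the alternatives. Past 2-fold were 1 gene upward and 1 downward (3.28% and 3.29% of all genes). S100a4 was at least 2-fold higher (11.01 on the HFD and 9.63 on the ND array), the integrin gene Itga4 had 7.20 and 6.69, and Plac8 was at least 2-fold lower (8.45 and 9.98). Chil3, named after its values were seen, lay below the floor with 5.97 on the HFD array and 3.96, under background, on the ND array, which makes it at least 2.05-fold higher.

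The ligands of the 2 receptors differed from each other. Ccl2 had 9.64 on the HFD array and 7.20 on the ND array, a ratio of 5.41, and Ccl7, the other main CCR2 ligand, had 8.33 and 6.40, a ratio of 3.80. Cx3cl1, the ligand of CX3CR1, had 5.84 and 5.78. Csf1, the growth factor of macrophages, had 8.45 and 8.81 at its brightest probe set. Its other probe sets went both ways, with differences of -0.17 to 0.18. Of the 5 ligand genes compared, Ccl2 and Ccl7 were the 2 past 2-fold, both upward (3.28% of all genes were). Ccl12 and Csf2 were below the floor.

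Among genes that work with the resident markers, 13 of 19 passed the floor. Of these, 3 were past 2-fold upward (3.28% of all genes were) and 0 downward (3.29% of all). Hmox1, which breaks down the haem that CD163 brings in, had 9.10 on the HFD array and 7.71 on the ND array, a ratio of 2.62. Cd44, the other main hyaluronan receptor beside LYVE1, had 10.53 and 9.05, a ratio of 2.79. Gas6, a bridge between dying cells and MERTK, had 10.23 and 10.95. The scavenger receptor Stab2 had 5.98 on the HFD array and 4.91, under background, on the ND array, and so was at least 2.06-fold higher. Its mean was barely above the floor.

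Most transcripts of hepatocytes, which are not cells of fat, differed between the pools by more than any marker did. All 10 hepatocyte genes were lower on the HFD array (49.3% of all genes were), 9 of them at least 2-fold (3.29% of all). Alb had 7.91 on the HFD array and 13.15 on the ND array, and Serpina1c, the lowest, had 5.69 and 12.38. Ahsg, which encodes the plasma protein fetuin-A, had 4.99 and 8.08. The exception was Cyp2e1, a cytochrome P450, with 13.23 on the HFD array and 13.81 on the ND array. It made up 9581 of the summed linear signal of 10059 on the HFD array and 14400 of 37293 on the ND array. The sums of the other 9 genes, computed after seeing the data, were 478 on the HFD array and 22892 on the ND array. Since Kupffer cells and the sinusoid endothelium of liver carry some of the resident markers, their genes are given here. Of 8 Kupffer cell genes 7 were above the floor, 5 higher and 2 lower (49.9% and 49.3% of all genes). Past 2-fold upward or downward were 0 (3.28% and 3.29% of all). Vsig4 (6.65 on the HFD and 5.91 on the ND array) and Marco (5.75 and 5.28) were highest and C6 (9.02 and 9.50) was lowest. Their summed linear signal was 1910 on the HFD array and 2007 on the ND array. Most of both sums came from C6, Fcna (8.97 on the HFD and 9.23 on the ND array) and Nr1h3 (9.25 and 8.86). The sum therefore says little about the dimmer genes of the list and is not a measure of Kupffer cell content. Clec4f, which defines Kupffer cells, was near background with 5.62 on the HFD and 5.34 on the ND array. Of 7 genes of liver sinusoid endothelium 4 were above the floor, 2 higher and 2 lower (49.9% and 49.3% of all genes). Stab2, barely above the floor and under background on the ND array, was the 1 past 2-fold, upward (3.28% of all genes were). Fcgr2b, an Fc receptor that macrophages also make, had 10.22 on the HFD array and 9.48 on the ND array, and Bmp2 had 7.22 and 7.34. The summed signal of the 7 was 1564 on the HFD array and 1049 on the ND array, of which Fcgr2b alone gave 1190 and 713. Without it the other 6 summed to 374 and 335. The part of liver cells in the signal of the resident markers was not tested. The adipocyte genes that identify the tissue were at 9.49 to 14.21 on the HFD array and at 10.23 to 14.24 on the ND array. Lep, which encodes leptin, had 13.07 on the HFD array and 11.99 on the ND array, the droplet protein gene Cidec had 13.26 and 13.02, and the glucose transporter gene Slc2a4, the lowest, had 9.49 and 10.23.

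Genes of lipid-associated macrophages, the cells around dying adipocytes, were measured too. Of 5 genes 4 were at least 2-fold higher (3.28% of all genes were). The highest were Gpnmb (11.25 on the HFD and 7.85 on the ND array) and Trem2 (9.40 and 6.87). The gene below 2-fold was Cd9, a tetraspanin, with 10.10 on the HFD array and 9.72 on the ND array, a difference of 0.39.

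**Figure D4:**
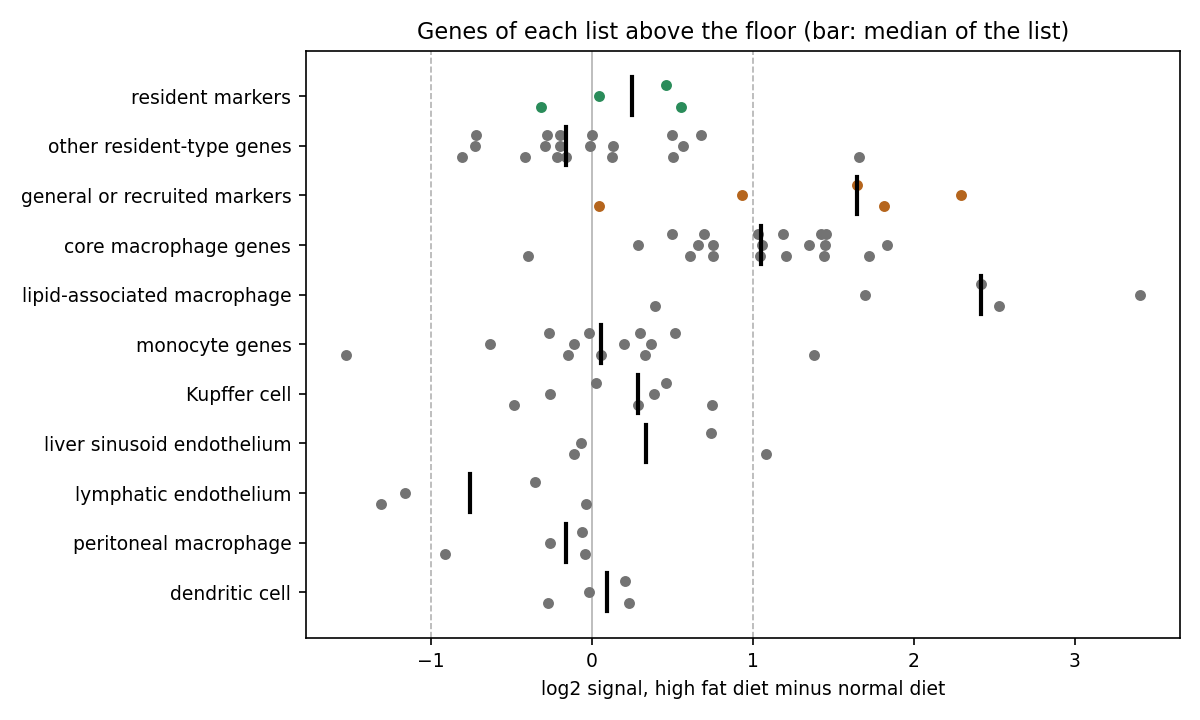
Difference in log2 signal (horizontal axis, HFD minus ND) for each gene above the floor in 11 lists (rows). Points are genes, black bars are list medians and dashed lines mark 2-fold. The resident markers and the other resident-type genes lie around 0, with medians of 0.25 and -0.16, and the general or recruited markers and core macrophage genes lie higher, with medians of 1.65 and 1.05.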

How the data were processed

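RNA of adipose tissue was measured on 2 Affymetrix arrays, 1 of a high fat diet pool and 1 of a normal diet pool. The authors deposited log2 signals per probe set made with RMA, which corrects background, equalises the arrays and combines the probes of a set, per the submitters' processing notes. That the scale is log2 was read from the range of values, 2.06 to 14.21 (HFD) and 2.04 to 14.28 (ND). Sorted values differed nowhere by more than 0.14, so a change in total RNA would not show, and RMA compresses differences at both ends of the scale.

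Of 45101 probe sets, 34958 had 1 symbol in GEO's platform annotation, 932 several and 9211 none, and 64 controls were left out. All 10 member symbols matched a RefSeq gene (GRCm38.p6) by Entrez ID. The comparison used Python 3.11.15, numpy 2.4.6 and pandas 2.3.3, and was checked on simulated data. A signal under background on 1 array gives a ratio written "at least", computed against background. Genes were named by rule, namely all members, the 2 highest and the 1 lowest difference of each list above the floor, and some always given, and those outside it are marked as such. A list gene with no probe set of its own was not analysed here. The members and lists were chosen with earlier results of these data known. Precision is limited by the number of arrays. The effect of 7 other settings was examined.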

Additional observations from a re-analysis of the deposited data

How the results depend on the processing

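Across 7 other settings and 1 more chosen after seeing the data, 59 of 209 recomputed values changed at all, and 52 of the 59 stayed within the probe set SD of 0.27, or within 1.5 times for counts. The other 7 are given here. Centring on bright genes and raising dim signals to background left each of their 28 values as it was, so neither bears on stability. Without probe sets whose names end in _s_at, _x_at or _a_at, Adgre1 and Folr2 had no probe set, the median of the general or recruited markers was 1.37 over 4 genes and the resident median lay at -1.07 relative to the core macrophage genes. With no floor 2 monocyte genes were at least 2-fold higher, against 1 with it, and with a floor at the 75th percentile 190 of all genes were at least 2-fold higher and 132 lower, against 386 and 388. At the second brightest probe set, chosen after seeing the data, the difference of Ccr2 was 1.22 and that of Cx3cr1 0.67, the last from signals below background. The resident median ran from 0.04 to 0.25, the general or recruited median from 1.37 to 1.73, and the first minus the second from -1.60 to -1.33. These ranges partly follow which genes were included. The 1.73 arose where Cx3cr1 fell below the floor, leaving 4 genes. With no floor Timd4 was added, which gave the -1.60. The -1.33 arose without Adgre1 and Folr2. The count of general or recruited markers at least 2-fold higher ran from 2 to 4, and that of resident markers stayed at 0. No paired analysis was possible because each diet has 1 array, and for the same reason no array could be left out.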

Other observations

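Genes of neighbouring immune cells were measured on the same arrays. Of 7 dendritic cell genes 4 were above the floor, 2 higher and 2 lower (49.9% and 49.3% of all genes). Past 2-fold upward or downward were 0 of these 4 (3.28% and 3.29% of all). Flt3, the growth factor receptor of dendritic cell precursors, had 6.41 on the HFD array and 6.18 on the ND array. The lectin gene Cd209a had 7.97 and 7.76, and Itgae, an integrin chain, had 5.62 and 5.89. Of 12 T and NK cell genes 5 were above the floor, with 1 at least 2-fold higher (3.28% of all genes were). That was Il7r, the interleukin 7 receptor, with 9.14 on the HFD array and 6.01 on the ND array, a ratio of 8.75, while the T cell receptor subunit Cd3e, named after its values were seen, had 6.26 and 6.33. Cd8a had 6.15 and 5.76 at its brightest probe set. Its other probe sets, with signals of 5.15 or less, were lower on the HFD array (differences of -0.79 to -0.23). Lat, a signalling adaptor of T cells, had 5.96 and 6.27. Of the genes of large peritoneal macrophages 4 were above the floor, and 3 below it went both ways. All 4 above it were lower (49.3% of all genes were), by less than 2-fold. Gata6, the defining factor of these macrophages, had 6.97 on the HFD array and 7.88 on the ND array. Selp had 6.71 and 6.76 and Rarb had 5.88 and 5.94. These last differences, -0.05 and -0.06, were smaller than the probe set SD of 0.27.

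With 2 arrays the likeness of 2 genes rests on a single difference. Closest to Cd68 were Krt79 (2.28), a keratin, and Cd84 (2.31), a receptor of leukocytes, and 15 genes lay within 0.1 of it. Closest to Lyve1 were Acp6 and Trpc1, both at -0.32, among 1401 genes within 0.1.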
